A study of Mus musculus with 6 samples.

Results

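The common beta cytokine receptor genes were followed as a group of 9 genes out of 54429 in the count table. They are the beta chains Csf2rb and Csf2rb2, the alpha chains Csf2ra, Il3ra and Il5ra, the kinase Jak2, the transcription factors Stat5a and Stat5b, and the feedback inhibitor Cish. The genes were matched by symbol, and the group was chosen on values of this same comparison, because Csf2rb and Csf2rb2 had risen strongly with Meis1. Values of the 9 genes between the conditions are therefore given as a description, without p-values. Their calls in the fit of all genes are listed further on, and nothing is read from the counts of these calls. All 9 were among the 16065 genes kept by a filter on low counts, and Csf2rb2 passed it only through its counts in the Meis1-overexpressing libraries.

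GM-CSF, IL-3 and IL-5 each bind an alpha chain of their own, and signal only once this joins a beta chain. Csf2rb encodes the beta chain that all 3 receptors share, while mice carry a second, closely related gene, Csf2rb2, whose product serves IL-3 alone. Neither chain is an enzyme: JAK2 bound to the beta chain phosphorylates it, STAT5 docks there and enters the nucleus, and targets such as Cish feed back on the receptor. The receptors are best known from myeloid cells, eosinophils and blood progenitors, although endothelial cells (EC) can also carry them.

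The cells were aortic EC of adult wild-type C57BL/6 mice, purchased as primary cells and grown in culture. They were transduced with a lentiviral vector that overexpressed Meis1 (Meis1-OE) or with a control vector (YFP-CTRL), and the transduced cells of both conditions were sorted as YFP+CD31+VEC+, so every library carries a vector and YFP. Each condition has 3 libraries of ribodepleted total RNA from expanded, confluent cultures. Sorting took place at 72 h, and RNA came from 300000 cells. The libraries are called A, B and C after the letters of the count table, and values of single libraries are listed in that order. The study asked whether Meis1 alone pushes adult EC towards a hemogenic program.

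Library totals ran from 34176642 to 47956605 estimated counts, so that 1 count was worth 0.0216 to 0.0294 CPM (counts scaled to a common library size) after TMM normalization. Meis1 itself went from 1.48 ± 0.365 to 3218 ± 258 CPM (SD, n = 3 each), with vector and endogenous transcripts counted together. All 10 endothelial genes were tested, and their summed level was 3416 to 4243 CPM in Meis1-OE EC and 4518 to 6231 CPM in YFP-CTRL EC. At an adjusted p under 0.05 by edgeR, only Vwf rose and only Tek fell (1 and 4 at an unadjusted p under 0.05, and 1 and 3 with DESeq2). Kdr and Cdh5, which encodes VEC, narrowly missed that threshold (adjusted p = 0.0504 and 0.0535 by edgeR). Both were lower in every Meis1-OE library than in any control, with log2 fold changes of -1.23 and -0.70. Pecam1, which encodes CD31, overlapped between the conditions and had 26112 to 47352 counts per library. The cultures differed in cell cycle genes: the mean log2(CPM + 1) of 15 of them, used as a growth score, was 4.70, 5.48 and 6.71 in YFP-CTRL EC but 6.72 to 6.78 in Meis1-OE EC. On the first principal component, which held 67.8% of the variance, YFP-CTRL library C stood apart from controls A and B, on the side of the Meis1-OE libraries.

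Csf2rb2 and Csf2rb lie next to each other on chromosome 15 of mouse build GRCm38.p6 (mm10, the build named for these data), at chr15:78282507-78305721 and chr15:78325800-78351001, with 20078 bases between them. Their coding sequences, of 2637 and 2691 bases in the longest GENCODE vM1 transcripts, were 95.2% identical over 2631 aligned bases. Because such likeness decides which reads can be told apart, the 90-base stretches of the coding sequence with the fewest and the most differences are shown, with capitals at the bases that differ between the pair. In the first stretch, bases 662 to 751 of Csf2rb and 665 to 754 of Csf2rb2, there was no difference.
Csf2rb: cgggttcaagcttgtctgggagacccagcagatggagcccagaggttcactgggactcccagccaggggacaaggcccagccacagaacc
Csf2rb2: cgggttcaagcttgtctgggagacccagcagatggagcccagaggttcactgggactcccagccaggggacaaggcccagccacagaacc
In the second, bases 308 to 397 of Csf2rb and 311 to 400 of Csf2rb2, 16 of 90 bases differed.
Csf2rb: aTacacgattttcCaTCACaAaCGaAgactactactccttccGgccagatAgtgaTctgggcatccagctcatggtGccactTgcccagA
Csf2rb2: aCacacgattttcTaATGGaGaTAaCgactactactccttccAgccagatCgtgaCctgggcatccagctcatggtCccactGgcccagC
The longest identical run was 242 bases. Of all 50-base windows of the longest Csf2rb transcript, 18.7% were found unchanged in Csf2rb2, and of all 100-base windows 6.97% were. The summed counts of Csf2rb and Csf2rb2 were a whole number, within 0.002, in all 6 libraries, although each gene alone had a fraction in every library but YFP-CTRL A, where Csf2rb2 was at 0. How many of the reads given to either gene were shared cannot be told from the counts.

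The levels assigned to both beta chains were near 0 in the controls and far higher after Meis1. Csf2rb was counted 13, 26 and 50 times in YFP-CTRL EC, against 1503, 2316 and 2182 times in Meis1-OE EC. Its level was 0.706 ± 0.364 CPM in YFP-CTRL EC and 43.7 ± 9.55 CPM after Meis1 (SD over 3 libraries each). On the log2 scale this is a difference of 5.91, with a standard error of 0.38 from edgeR's quasi-likelihood fit. The conditions lay far apart, and the lowest Meis1-OE library was 29.9 times the highest YFP-CTRL library. Csf2rb2 was counted 0, 1 and 1 times in YFP-CTRL EC and 80, 88 and 80 times in Meis1-OE EC. With 2 counts in all of YFP-CTRL EC against 248, its normalized ratio was 108.5. That ratio is imprecise at so few YFP-CTRL counts, and it describes a gene chosen because it rose. Csf2rb2 was given 3.55% to 5.08% of the summed beta chain counts in Meis1-OE EC. In YFP-CTRL EC its share was 0%, 3.8% and 2.01%, of sums of only 13, 27 and 51 counts. How much of the Csf2rb2 count came from reads shared with Csf2rb cannot be told. Counted as 1 feature, the pair had a log2 fold change of 5.94, close to that of Csf2rb, which holds most of the counts as they were divided.

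**Figure D1:**
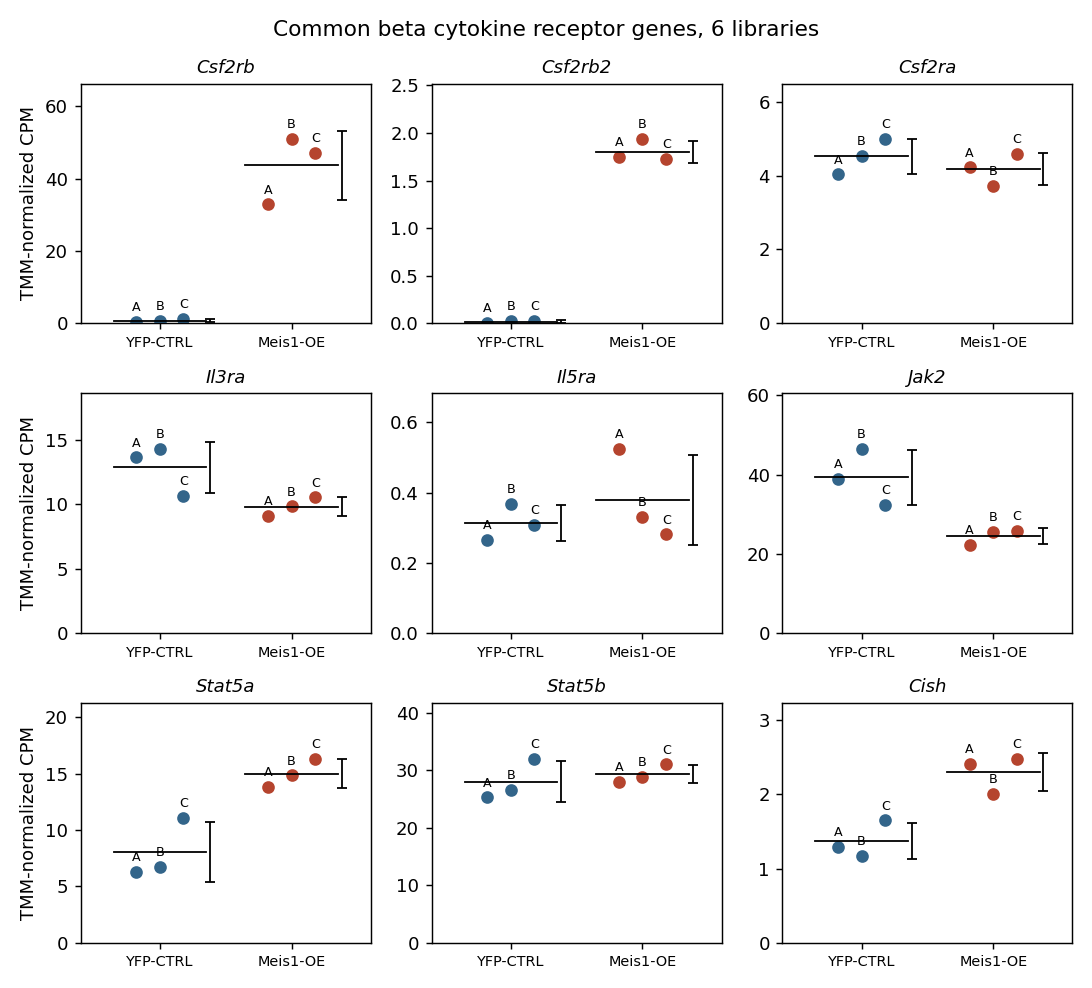
TMM-normalized CPM of the 9 genes in each library (points, with the library letter), with the mean of each condition (line) and its SD (bar) over 3 libraries, on linear axes from 0. Csf2rb and Csf2rb2 are near 0 in all YFP-CTRL libraries, Stat5a and Cish are higher and Jak2 and Il3ra lower in all Meis1-OE libraries, and the other genes overlap.

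The alpha chains, which hold the specificity for each cytokine, did not follow the beta chains. Csf2ra, the GM-CSF chain (chromosome 19), was at 4.03, 4.53 and 4.99 CPM in YFP-CTRL EC and 4.22, 3.72 and 4.60 CPM in Meis1-OE EC, and the conditions overlapped. Il3ra, the IL-3 chain (chromosome 14), was at 13.7, 14.3 and 10.7 CPM in YFP-CTRL EC and 9.08, 9.84 and 10.6 CPM in Meis1-OE EC. Every Meis1-OE library was below every control, by a narrow margin from YFP-CTRL library C, and the log2 fold change was -0.39 (standard error 0.16). Il5ra, the IL-5 chain (chromosome 6), had only 9 to 24 counts in any library. Its levels of 0.265, 0.368 and 0.308 CPM in YFP-CTRL EC and 0.525, 0.330 and 0.281 CPM in Meis1-OE EC overlapped, and without Meis1-OE library A its log2 fold change of 0.26 became -0.04. On library totals, which move the median log2 fold change of all genes from 0.01 to 0.15, Csf2ra went from -0.11 to 0.03.

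Levels were compared between genes per kb of the longest transcript. In YFP-CTRL EC the order of the receptor chains was Il3ra at 9.24 ± 1.41, Csf2ra at 2.44 ± 0.260, Csf2rb at 0.148 ± 0.0764 and Il5ra at 0.0951 ± 0.0156 CPM per kb (SD, n = 3), with Csf2rb2 last. Csf2rb and Il5ra overlapped there, and the other neighbours in that order did not. In Meis1-OE EC, Csf2rb came first at 9.17 ± 2.01 CPM per kb, overlapping Il3ra at 7.05 ± 0.529, and was followed by Csf2ra at 2.26 ± 0.237, Csf2rb2 at 0.391 ± 0.0251 and Il5ra at 0.115 ± 0.0392. Per length, the ratio of Csf2rb to Csf2ra was 0.0368, 0.0545 and 0.0855 in YFP-CTRL EC, against 3.02, 5.32 and 3.98 in Meis1-OE EC. For Csf2rb over Il3ra the ratio was 0.0082 to 0.0302 in YFP-CTRL EC and 1.06 to 1.52 in Meis1-OE EC. By this measure Csf2rb was thus below Csf2ra and Il3ra in every YFP-CTRL library and above them in every Meis1-OE library. The ratio to Il3ra was as low as 1.06, in Meis1-OE library A. Which transcript of each gene was present was not measured, so the order of Csf2rb and Il3ra in Meis1-OE EC is not settled.

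**Figure D2:**
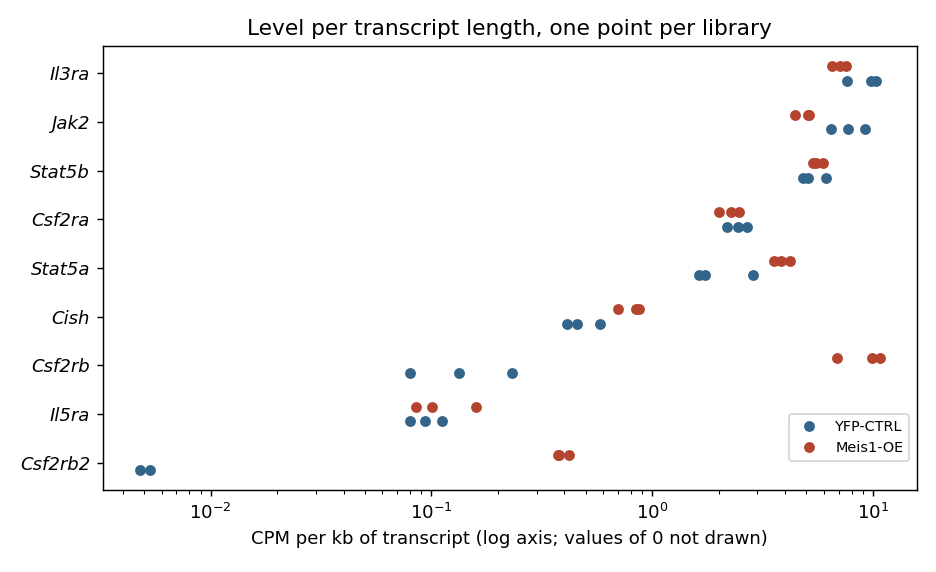
CPM per kb of the longest transcript (log axis) of each gene, with 1 point per library, ordered by the YFP-CTRL mean. Csf2rb moves from between Cish and Il5ra in YFP-CTRL EC to the level of Il3ra in Meis1-OE EC, and 1 YFP-CTRL value of Csf2rb2 is at 0 and not drawn.

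Jak2, the kinase that the beta chain binds, was lower after Meis1. Its level was 38.9, 46.5 and 32.4 CPM in YFP-CTRL EC, against 22.3, 25.5 and 25.7 CPM in Meis1-OE EC, a log2 fold change of -0.68 (standard error 0.16) without overlap. Stat5a, which together with Stat5b relays the signal to the nucleus, was at 6.33, 6.74 and 11.1 CPM in YFP-CTRL EC and 13.8, 14.8 and 16.3 CPM in Meis1-OE EC. It was higher in every Meis1-OE library, with a log2 fold change of 0.89 (standard error 0.23). Stat5b was at 25.2, 26.6 and 32.0 CPM against 28.0, 28.8 and 31.0 CPM, with overlap and a log2 fold change of 0.07 (standard error 0.13), which was -0.01 without YFP-CTRL library A. Both genes lie 346 bases apart on chromosome 11, their coding sequences were 90.8% identical, and their counts too were fractions that summed to a whole number within 0.002 in every library. The share of Stat5b in the summed Stat5 counts was 79.9%, 79.8% and 74.2% in YFP-CTRL EC, against 65.5% to 66.9% in Meis1-OE EC.

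Cish, a STAT5 target that blocks STAT5 docking, was counted 44, 48 and 75 times in YFP-CTRL EC and 110, 91 and 115 times in Meis1-OE EC. At 1.37 ± 0.246 CPM against 2.30 ± 0.257 CPM (SD, n = 3 each) it was higher in every Meis1-OE library, with a log2 fold change of 0.74 (standard error 0.24). RefSeq promoter windows of GRCm38.p6, from 250 bases before to 50 after a start, were read for 8 of the 9 genes, all except Csf2rb. Each was searched on both strands for the STAT motif TTCNNNGAA, present in 8.3% of 32851 windows, and for the Meis core TGACAG, present in 19.2%. The STAT motif was found in Cish and Csf2rb2 and in none of the other windows searched, and the Meis core in Il5ra, Jak2 and Cish. The windows of Cish and Csf2rb2 are shown because they hold the STAT matches, with capitals at every match of either motif. In the Cish window, at chr9:107296409-107296708 on the plus strand, a STAT match began at the first transcribed base and another 11 bases after it, followed by a Meis core on the other strand.
Cish: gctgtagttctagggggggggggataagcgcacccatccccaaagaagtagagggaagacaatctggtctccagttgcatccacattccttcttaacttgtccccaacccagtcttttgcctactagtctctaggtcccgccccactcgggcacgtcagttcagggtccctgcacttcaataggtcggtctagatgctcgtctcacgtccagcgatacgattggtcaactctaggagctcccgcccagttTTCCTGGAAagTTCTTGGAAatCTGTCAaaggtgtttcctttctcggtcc
In the Csf2rb2 window, at chr15:78305672-78305971 and read on the minus strand, 1 STAT match began 15 bases before the start.
Csf2rb2: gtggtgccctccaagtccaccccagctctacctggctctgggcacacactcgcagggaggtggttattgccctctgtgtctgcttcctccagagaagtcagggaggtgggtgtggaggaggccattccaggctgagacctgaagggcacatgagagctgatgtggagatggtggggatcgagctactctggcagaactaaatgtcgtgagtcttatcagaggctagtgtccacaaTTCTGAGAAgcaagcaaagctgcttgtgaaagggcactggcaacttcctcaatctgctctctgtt
A match describes the letters only, and no binding was measured in these cells.

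With a threshold of 0.05 on the adjusted p from edgeR's fit of all genes, 2 of the 9 genes were called higher (Csf2rb and Csf2rb2), where 4.14% of all tested genes were, and 1 was called lower (Jak2), where 2.73% were. Without overlap between conditions, 4 of the 9 were higher (Csf2rb, Csf2rb2, Stat5a and Cish) and 2 lower (Il3ra and Jak2), where 17.2% and 15.9% of all tested genes were. The group was chosen on this comparison, and Csf2rb2 passed the filter only through the condition in which it is high, so nothing is read from these counts. The call of Jak2 depended on the setting. It was lost on library totals, without the filter, with at least 10 counts in every library, with a covariate for growth and on leaving out any library other than YFP-CTRL C. Stat5a was called higher on library totals, by DESeq2 and without YFP-CTRL library C. Cish was called higher and Il3ra lower without that library alone.

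**Figure D3:**
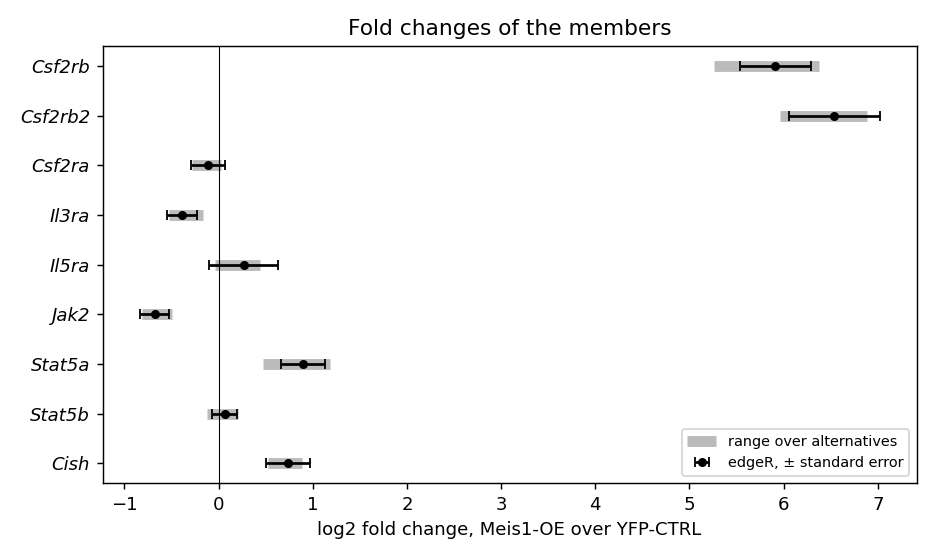
Log2 fold change of each gene in Meis1-OE over YFP-CTRL EC from edgeR (point, with its standard error) and the range of that value over the alternative settings (grey bar). The values of the beta chains run from 5.26 to 6.89 over the settings that tested them.

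The controls that differed in growth score also differed in some of these genes. Csf2rb was at 0.383, 0.637 and 1.10 CPM in YFP-CTRL EC, in the order of the scores, as were Csf2ra, Stat5a and Stat5b. YFP-CTRL library C, whose score of 6.71 was close to that of the Meis1-OE libraries, had 1.10 CPM of Csf2rb against 32.9 CPM or more in Meis1-OE EC. With the score as a covariate the log2 fold change was 5.26 for Csf2rb, 5.97 for Csf2rb2, 0.47 for Stat5a, 0.53 for Cish, -0.50 for Jak2 and -0.17 for Il3ra. The score varied mainly among the YFP-CTRL libraries, and only control C came near the scores of Meis1-OE EC. The part of growth in the values of Csf2rb, Csf2rb2, Stat5a, Cish, Jak2 and Il3ra was not tested further.

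**Figure D4:**
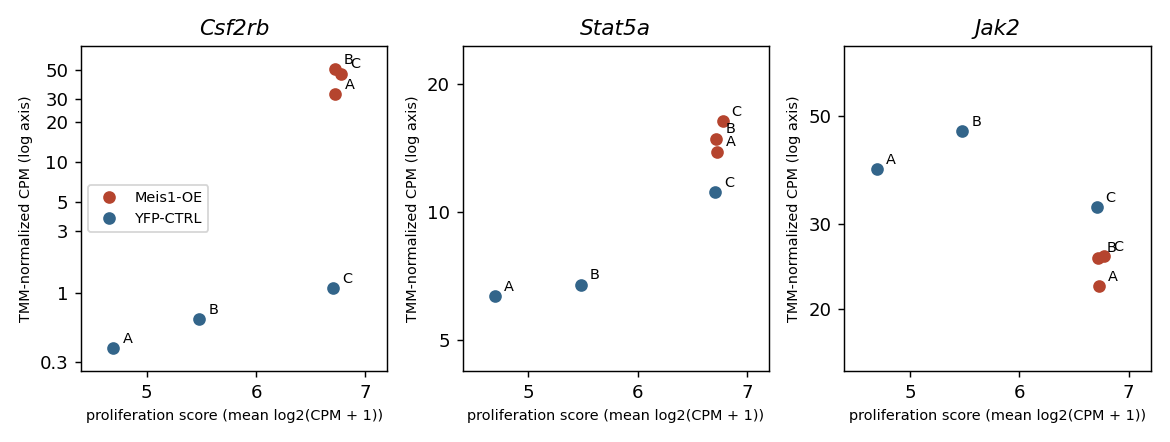
CPM of Csf2rb, Stat5a and Jak2 (log axes) against the score of 15 cell cycle genes (mean log2(CPM + 1)) in each library, labelled by letter. YFP-CTRL library C has the score of the Meis1-OE libraries, with Csf2rb at 1.10 CPM against 32.9 to 51.0 CPM.

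Because these receptors mark myeloid cells, genes of other cell types were counted as well. Of 14 macrophage genes, C1qa, C1qb, C1qc, Tyrobp and Adgre1 were at 0 in all 6 libraries, Ptprc and Spi1 had at most 1 count in any Meis1-OE library, and 8 had at most 3 counts in every library. The sum of the 14 was 71.0 to 107 CPM in Meis1-OE EC and 66.1 to 141 CPM in YFP-CTRL EC, most of it from Cd68. Lyz2 was counted 6, 40 and 37 times in Meis1-OE EC, against 7 or 8 times in each YFP-CTRL library. Csf1r was counted 15, 26 and 18 times against 1, 4 and 12 times. None of the 10 granulocyte and mast cell genes exceeded 5 counts in any library, and their sum was 0.197 to 0.259 CPM in Meis1-OE EC and 0.0660 to 0.206 CPM in YFP-CTRL EC. The 10 mural and fibroblast genes summed to 15.8 to 17.9 CPM and 34.9 to 54.2 CPM. Most of this was Pdgfra, at 11.7 to 11.9 CPM against 33.2, 49.1 and 15.6 CPM, and in YFP-CTRL library C also Acta2, at 19.8 CPM, while Pdgfrb had 2.18 to 2.96 CPM against 0.971 to 2.38 CPM. The part of these other cell types in the level of Csf2rb was not tested. In bulk RNA, more cells with a transcript and more transcript per cell cannot be told apart.

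The ligands were nearly absent. Csf2, which encodes GM-CSF, was counted 20, 19 and 4 times in Meis1-OE EC, against 0, 1 and 0 times in YFP-CTRL EC. That is 43 counts against 1, a normalized ratio of 37.6 with a 95% exact counting interval from 6.40 to 1520. The interval covers counting error only and leaves out the spread between libraries. Every Meis1-OE library was above every YFP-CTRL library, but the gene did not pass the filter on low counts and was not tested. Without the filter, edgeR gave it an adjusted p of 0.0345, with a range of 0.0100 to 0.148 over the alternatives that tested it. Il3 was at 0 in every library and Il5 had at most 3 counts, which is within the floor of 3 counts.

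Other genes of the pathway were taken from lists that were chosen with earlier results of these data known. The lists hold 70 genes, of which 53 were tested. Of these, 9 (17.0%) rose and 4 (7.55%) fell with Meis1 at the same threshold, beside 4.14% and 2.73% of all tested genes. The median log2 fold change of the 53 genes was 0.01, as it was for all tested genes. Because of how the lists were chosen, nothing about the pathway is read from these shares. None of these 13 calls held without Meis1-OE library B or without Meis1-OE library C, when 115 and 126 genes in all were still called higher. Without Meis1-OE library A 4 held, among them Ghr, Il21r and Stat2, without YFP-CTRL library B only Ghr, and without YFP-CTRL library A 9, while without YFP-CTRL library C all 13 held. With the growth score as a covariate, Ghr, Il4ra, Il6ra and Il11ra1 were still called.

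Among the 8 other JAK and STAT genes, 3 rose and 0 fell (4 and 0 at an unadjusted p under 0.05, as with DESeq2). Jak3, the kinase of the gamma chain receptors, rose from 9.19 ± 3.62 to 21.9 ± 1.79 CPM (SD, n = 3 each) or by 1.25 on the log2 scale (adjusted p = 0.0382 by edgeR). Stat2, which carries interferon signals, rose by 0.99 on the log2 scale (adjusted p = 0.0266 by edgeR). Jak1, which pairs with JAK2 or JAK3 at other receptors, was at 125 ± 14.0 CPM and 131 ± 5.85 CPM (adjusted p = 0.750 from edgeR).

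Of 12 tested adaptors and PI3K genes, Pik3r1, the regulatory subunit of PI3K, rose by 0.61 on the log2 scale (adjusted p = 0.0496 from edgeR), and 0 fell (0 at an unadjusted p under 0.05 and with DESeq2). The phosphatase gene Ptpn11 and the adaptors Shc1, Grb2 and Gab2 had log2 fold changes between -0.09 and 0.11, and none passed. Of 11 inhibitors, 0 rose and 1 fell (1 and 3 at an unadjusted p under 0.05, and 1 and 2 with DESeq2). The one that fell was Cblb, a ubiquitin ligase, at 83.9 ± 18.9 and 49.8 ± 1.26 CPM (SD, n = 3 each, adjusted p = 0.0490 from edgeR). Socs2, a STAT5 target and inhibitor, was at 19.7, 20.9 and 5.61 CPM in YFP-CTRL EC, against 4.77 to 6.17 CPM in Meis1-OE EC. YFP-CTRL library C lay within the Meis1-OE range, and Socs2 missed the threshold (adjusted p = 0.0966 by edgeR).

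Of 8 tested STAT5 target genes, 1 rose and 1 fell (1 and 2 at an unadjusted p under 0.05, as with DESeq2). Pim1, a survival kinase, rose from 7.43 ± 0.999 to 11.9 ± 0.864 CPM (SD, n = 3 each, adjusted p = 0.0459 by edgeR). Ccnd2, cyclin D2, fell from 417 ± 104 to 208 ± 18.8 CPM (SD, n = 3 each, adjusted p = 0.0279 by edgeR). Pim3, a kinase related to Pim1 and named here after its values were seen, was counted 2097, 2194 and 1631 times in YFP-CTRL EC, against 1372, 1185 and 1338 times in Meis1-OE EC. Its log2 fold change of -0.83 missed the threshold (adjusted p = 0.0544 by edgeR, 0.00550 by DESeq2) and was -0.36 with the growth score as a covariate. Other targets, Bcl2l1 and Mcl1, which encode survival factors, had log2 fold changes of -0.18 and -0.01.

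**Figure D5:**
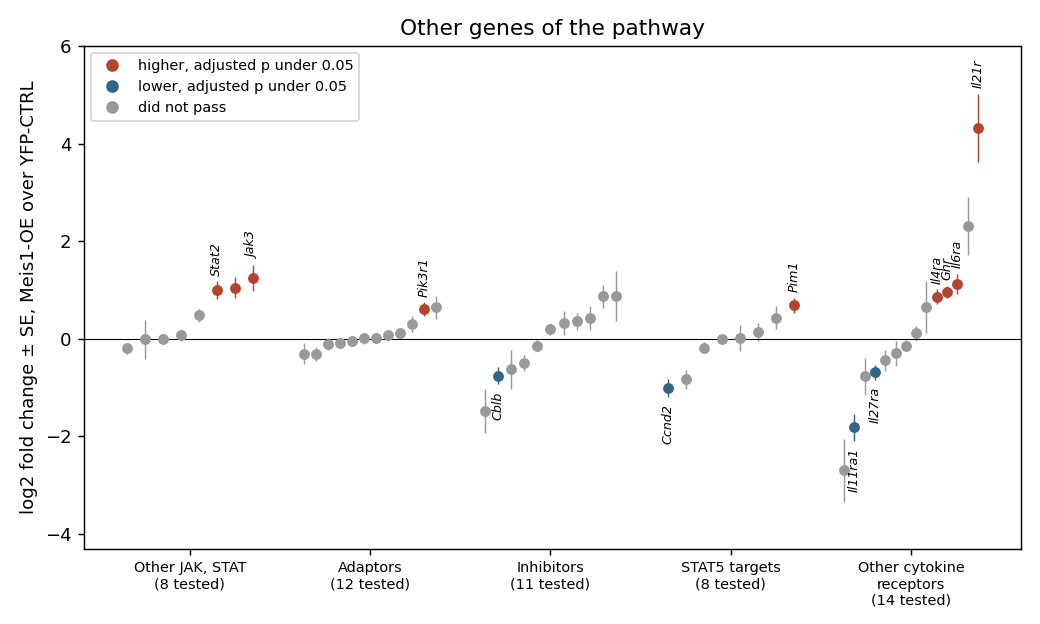
Log2 fold change (point) and standard error (bar) in Meis1-OE over YFP-CTRL EC of the 53 tested genes in 5 lists, sorted within each list. Coloured genes passed an adjusted p of 0.05, 9 upward and 4 downward, and most of them are named.

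Of 24 other cytokine receptor chains, 14 were tested, and 4 rose and 2 fell. Il4ra, the IL-4 receptor chain, rose from 70.4 ± 13.9 to 128 ± 4.88 CPM (SD, n = 3 each, adjusted p = 0.0218 from edgeR). Ghr, the growth hormone receptor, which also uses JAK2 and STAT5, rose by 0.96 on the log2 scale (adjusted p = 0.00969 by edgeR), and Il6ra by 1.12 (adjusted p = 0.0252). Il21r was counted 0, 1 and 1 times in YFP-CTRL EC and 10, 18 and 25 times in Meis1-OE EC (adjusted p = 0.0169 from edgeR). Its normalized ratio was 23.2, with a 95% exact counting interval from 6.11 to 196, which covers counting error only. Il11ra1 and Il27ra fell by 1.81 and 0.69 on the log2 scale (adjusted p = 0.0138 and 0.0453 from edgeR). Csf3r and Epor, whose products also signal through JAK2 in blood cells, were scarce. Csf3r reached no more than 5 counts per library, and Epor 7 to 39.

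The genes around the beta chain pair on chromosome 15 were read as a check of the locus. Ncf4 and Pvalb on the side of Csf2rb2, and Tex33 on the side of Csf2rb, had at most 1 count in any library. Ift27, Tst and Mpst, further out, had log2 fold changes of 0.52, 0.04 and 0.05 (adjusted p = 0.297, 0.961 and 0.913 by edgeR). Il2rb, the IL-2 receptor beta chain on the same chromosome, had 5, 18 and 6 counts in Meis1-OE EC and 3, 1 and 3 in YFP-CTRL EC, and was not tested.

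The genes most like Csf2rb over the 6 libraries were ranked by Pearson's r of log2(CPM + 1) among 10220 others with a mean of at least 5 CPM. Among the first 5 were Mal (0.9991), Tgfb3 (0.9986), Adgre5 (0.9972) and Helb (0.9967). They share the step between the conditions, so that these values describe that step in 6 libraries and carry no p. Pearson's r does not measure the size of the step. The log2 fold change was 6.78 for Mal and 5.09 for Tgfb3, but 1.39 for Adgre5 and 0.997 for Helb. Mal, a lipid raft protein, went from 0.719 ± 0.387 to 80.8 ± 14.6 CPM, and Tgfb3, a TGF-beta ligand, from 4.195 ± 1.33 to 143 ± 45.7 CPM (SD, n = 3 each).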

How the data were processed

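Values deposited by the authors are estimated counts without normalization, 1 column for each of 6 ribodepleted RNA-seq libraries. The submitters' processing notes name build mm10. The aligner, counting tool and annotation are not given in the sources used here, nor is the use of strand. Conditions came from the labels. Nothing ties the column letters to the numbered replicates. The libraries are called independent replicates, and p-values measure the spread between them.

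Rounded counts went into edgeR 4.0.16 under R 4.3.3 (TMM, filterByExpr, quasi-likelihood test, Benjamini-Hochberg adjustment, threshold 0.05). Standard errors came from the F statistic. The floor was 3 counts. Alternatives were library totals, DESeq2's size factors, DESeq2 1.42.0 itself, a robust fit, no filter, a minimum of 10 counts in every library, leaving out each library, the growth score as a covariate, the column letter as a block, and the beta chains summed. In a single simulated data set, the share of false calls was above the threshold for both tools, and larger for DESeq2 than for edgeR. A single data set cannot show how the tools do on average. Exact permutation of 3 libraries against 3 cannot go below 0.1. Counting intervals of ratios were exact (Clopper-Pearson on the summed counts) and leave out the spread between libraries.

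Genes to name were the 9 members, the listed pathway genes past the threshold, the ligands, Jak1, Socs2, Pim1 and Il2rb, 5 genes most like Csf2rb, 3 neighbours on either side, and Meis1. Members, lists and alternatives were chosen with earlier results of these data known. Other genes were named after their values were seen. Some genes that the rule names are not reported here. Transcript lengths and coding sequences came from GENCODE vM1 (no coordinates used), positions and promoters from RefSeq GRCm38.p6. Figures were drawn with matplotlib 3.10.9, and alignments made with Biopython 1.88 in Python 3.11.15.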

Additional observations from a re-analysis of the deposited data

How the results depend on the processing

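Over the alternatives, the log2 fold change was 5.26 to 6.37 for Csf2rb and 5.97 to 6.89 for Csf2rb2, whose sign the choice of these genes fixed. With at least 10 counts in every library, Csf2rb2 and Il5ra were not tested. Counts of calls depended on the setting. From 665 higher and 438 lower genes in all, they went to 1048 and 180 on library totals, 1128 and 1115 with DESeq2, and 356 and 276 with the growth score as a covariate. Leaving out single libraries gave 115 to 2717 higher and 16 to 2498 lower. For the other pathway genes, 9 higher and 4 lower became 3 and 1 with the covariate, 0 to 17 and 0 to 9 without single libraries, and 2 lower on library totals and with at least 10 counts in every library, and 7 lower with DESeq2. With the column letter as a replicate block, 189 genes in all were lower, 4 pathway genes were higher and 2 lower, and Jak2 was not called. Deviations of libraries with the same letter correlated at 0.245, 0.19 and 0.0809, and those of libraries with different letters at -0.301 to 0.249, most of them negative. These values do not settle whether the letters mark pairs, and the main fit did not take them as pairs. The log2 fold change of Jak1 (0.07) was -0.028 to 0.157 without single libraries, the lowest being without YFP-CTRL library A, while the covariate gave -0.016. Over all alternatives, single named pathway genes kept both their sign and their side of the threshold on adjusted p 129 times. They lost a call 76 times and gained a call 2 times. The sign changed 2 times, both for Jak1, which was not called in these settings. The causes were not tested. Depth limits Il5ra, Csf2, Il2rb and the YFP-CTRL values of Csf2rb2, which rest on few counts.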

Other observations

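Some receptor chains outside the calls, chosen after their values were seen, also separated the conditions. Osmr, the oncostatin M receptor chain, was at 8.92, 6.32 and 1.254 CPM in YFP-CTRL EC, against 0.727 to 0.940 CPM in Meis1-OE EC (adjusted p = 0.0535 by edgeR, 7.69e-05 by DESeq2). Its log2 fold change was -2.69 and became -0.73 with the growth score as a covariate. Il13ra2, which binds IL-13 without signalling through a JAK, was counted 6, 10 and 1 times in YFP-CTRL EC and 27, 34 and 39 times in Meis1-OE EC (adjusted p = 0.0645 by edgeR, 0.0118 by DESeq2). Its log2 fold change was 2.31, and 3.76 with that covariate.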
